A study of Mus musculus with 12 samples.

Results

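An activated allele of the cytokine receptor gene Flt3 was compared with its wild-type form in early thymic precursors of C57BL/6 mice that carried a double-mutant background. Early thymic precursors are the most immature T-lineage cells of the thymus. The comparison takes 2 genotypes, with 4 libraries each. Both were homozygous for floxed alleles (Ezh2 fl/fl and Runx1 fl/fl) and carried Rag1Cre+, a Cre recombinase under Rag1 control. The first, dKO, had no further allele, and the second, dKO_Flt3ITD, was also Flt3 ITD/+, with an internal tandem duplication in 1 copy of Flt3. These 8 libraries were chosen by genotype out of 12. The other 4, called control here, had the floxed alleles without Cre, and their levels are given beside those of the 2 mutant groups. Each library was made from 100 sorted cells. A gene entered the test where it reached 1 RPKM in at least 4 of the 12 libraries, which kept 10690 of 13016 genes. RPKM is a read number scaled to transcript length and to the size of the library. The labels give neither the age of the mice nor which animal each replicate was taken from, so p-values measure only how much these libraries vary, which may be technical.

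Flt3 is a receptor tyrosine kinase of early blood progenitors, and its ligand, Flt3l, brings 2 receptors together and switches on their kinase. The internal tandem duplication lengthens the segment next to the membrane, so that the kinase signals without ligand. Known outputs are the Ras, Raf and ERK kinase cascade, the PI3 kinase and AKT route, and the transcription factor STAT5, which the wild-type receptor activates less. ERK induces immediate early genes such as Fos and Egr1 and its own inhibitors of the Dusp and Spry families. STAT5 induces Pim kinases and the feedback inhibitors Cish and Socs. In the thymus, precursors lose Flt3 as they commit to the T lineage, and Cre under Rag1 acts only where Rag1 has been turned on.

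The 8 libraries held 13623436 to 33985972 reads, as recovered from the RPKM values. All 7 markers of early thymic precursors fixed for the check passed the filter, among them Kit, Ptprc and Notch1. Passing says little about cell identity, since 10690 of 13016 genes passed this filter. Of 10 genes of later thymocytes that the table holds, 7 passed it too, among them Cd27 at up to 369 RPKM, Rag2 at up to 129 and Cd4 at up to 7.76, while the coreceptor genes Cd8a and Cd8b1 stayed below it, at no more than 0.932 RPKM. Mean correlation with the other libraries of the same group ran from 0.848 to 0.883 over the 8. Library dKO 1 stood apart: in 338 tested genes its value was an outlier of its group by the Dixon rule given below. That number was 126 to 219 in each of the others. Library dKO 1 alone held haemoglobin RNA, with the beta-globin gene listed as Beta-s at 2635 RPKM and at most 0.514 in the other 7. Libraries dKO_Flt3ITD 1 and 4 held more myeloid RNA than the rest, which is described with the genes it touches.

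No gene passed the test. Limma, a linear model over all tested genes, called 0 of 10690 at a Benjamini-Hochberg adjusted p under 0.05, a percentage of 0, with the lowest adjusted p at 0.0502 for Fos. Limma gave 824 genes (7.71%) an unadjusted p under 0.05, 395 of them (3.7%) higher and 429 (4.01%) lower in dKO_Flt3ITD. In 457 genes (4.28%) the 4 libraries of one group all lay above the 4 of the other, with 222 (2.08%) higher and 235 (2.2%) lower. Voom, which fits the recovered reads, also called 0 genes and gave 835 an unadjusted p under 0.05. The median log2 fold change of all tested genes was 0.0042, and the median standard error of a fold change was 0.524. The number of calls was 0 to 6 when single libraries were left out, and the number of genes without overlap then ran from 457 to 909. The values below are therefore levels and differences that did not pass the test across all genes. Fold changes are dKO_Flt3ITD minus dKO, computed from log2(RPKM + 1), and are too small for genes with low levels because of the added 1.

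**Figure D1:**
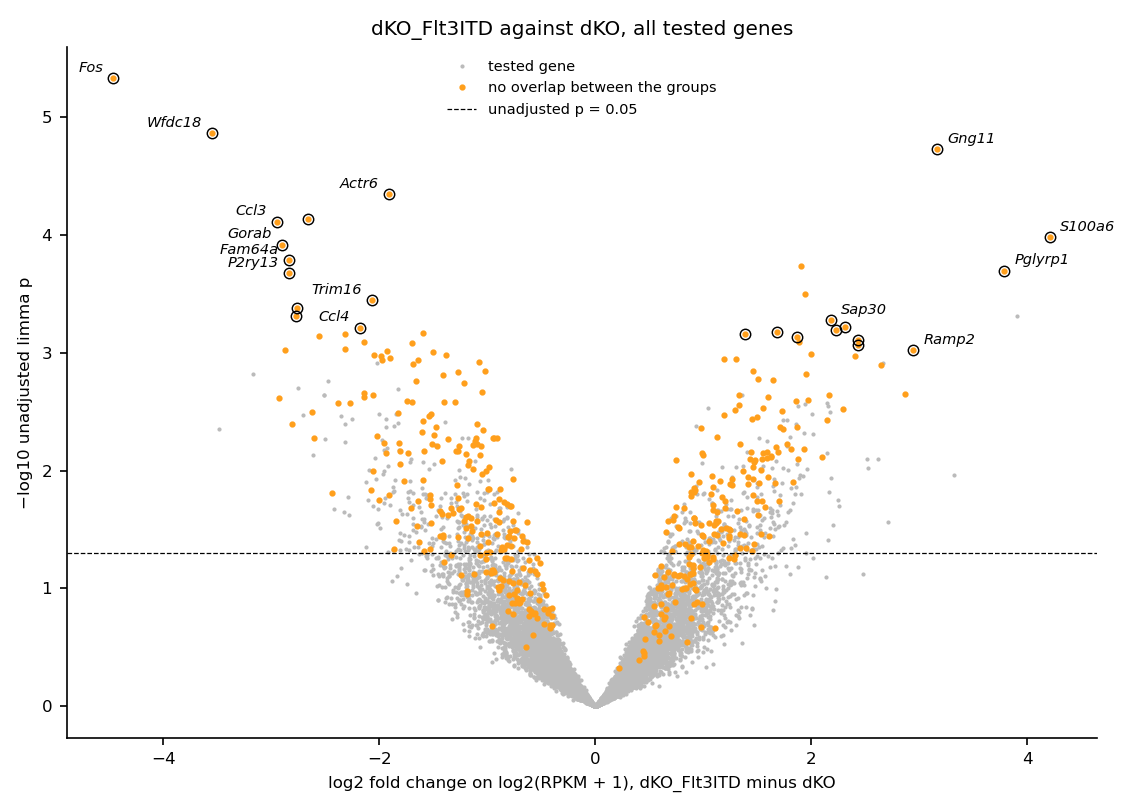
Log2 fold change (dKO_Flt3ITD minus dKO, on log2(RPKM + 1)) against the unadjusted limma p on a −log10 scale for the 10690 tested genes. Orange points are the 457 genes whose groups did not overlap, circles mark genes named by rank, and Fos, Wfdc18 and Gng11 lie farthest up.

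The genes that the genotypes name did not separate the groups. Flt3 (chromosome 5, 147330741 to 147400489, GRCm38) stood at 12.9, 35.8, 29.2 and 38.7 RPKM in dKO 1 to 4 and at 29.4, 25.7, 7.73 and 70.1 RPKM in dKO_Flt3ITD 1 to 4, against 53.3 to 110 RPKM in control. The mutant groups overlapped, and the highest and the lowest of the 8 values both lay in dKO_Flt3ITD. Its log2 fold change was −0.07 (95% interval −1.18 to 1.04, exact two-sided permutation p = 0.943), and the sign turned without dKO 2 (0.06), dKO 4 (0.10) or dKO_Flt3ITD 3 (0.47). A level over the whole gene cannot show the duplication itself, so it does not check the allele. Ezh2, the histone methyltransferase of Polycomb complexes, was at 16.9 to 29.8 RPKM in dKO and 12 to 24.6 in dKO_Flt3ITD (log2 fold change −0.45, 95% interval −1.20 to 0.29, exact permutation p = 0.143). Runx1, a DNA-binding factor that blood stem cells need, was at 35.9 to 58.2 and 32.6 to 58.8 RPKM (log2 fold change 0.03, 95% interval −0.68 to 0.73, exact permutation p = 0.914). Reads outside the floxed part count toward these levels, so the Runx1 value does not check the deletion. Rag1, whose control elements drive the Cre, was at 0.655 to 4.31 and 0.0556 to 4.38 RPKM (exact permutation p = 0.343). The limma adjusted p of these 4 genes lay between 0.814 and 0.991, and 4 libraries against 4 cannot give an exact p below 0.0286.

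The immediate early genes, whose transcription follows within minutes of a signal, had lower levels in dKO_Flt3ITD as a sum, with no member past the adjusted threshold. Of 21 tested, 19 had negative log2 fold changes (median −0.63), and 6 had a limma p under 0.05 downward and 0 upward, beside 4.01% downward over all tested genes. Their summed level was 383.7 to 550.2 RPKM in dKO and 219.7 to 310.2 in dKO_Flt3ITD, without overlap, and 407.3 to 1319 in control. The 5 members without overlap, beside 2.2% of all tested genes in that direction, were Fos, Jun, Egr1, Dusp2 and Btg1, the last 2 picked after their values were seen. Only Jund (log2 fold change 0.62) and Klf6 (0.53) had positive values. Fos, Jun, Egr1 and Zfp36 are also known to respond to tissue dissociation. A list of heat shock and dissociation genes shares these 4, and also Junb, Ier2, Dusp1 and Nr4a1, with the immediate early list. It had 15 of 18 negative values. The 4 members at a limma p under 0.05 downward were Fos, Egr1, Jun and Zfp36. The 3 without overlap were Fos, Egr1 and Jun, so both counts came only from shared genes. The sums of the whole heat shock list overlapped, at 3100 to 6531 RPKM in dKO and 3687 to 4981 in dKO_Flt3ITD. Its chaperone genes Hspa8 and Hsp90ab1 reached 4010 and 1190 RPKM, both in dKO 3. Whether handling of the tissue plays a part was not tested.

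Known control elements of immediate early genes include cyclic AMP response elements (CRE) and the serum response element. These bind factors that are targets of the kinases downstream of growth factor receptors. The promoters of 3 immediate early genes are shown as examples. They are the 250 bases before the RefSeq start on GRCm38.p6, written 5′ to 3′ in the direction of the gene, with each match to the 6 motifs searched in capitals. These are TGACG and TATAAA in Fos, TGACGTCA in Ppp1r15a and, in Zfp36, the CArG box, the core of a serum response element, followed by TTCNNNGAA, the motif of STAT factors.
Fos, chr12:85473640-85473889, plus strand: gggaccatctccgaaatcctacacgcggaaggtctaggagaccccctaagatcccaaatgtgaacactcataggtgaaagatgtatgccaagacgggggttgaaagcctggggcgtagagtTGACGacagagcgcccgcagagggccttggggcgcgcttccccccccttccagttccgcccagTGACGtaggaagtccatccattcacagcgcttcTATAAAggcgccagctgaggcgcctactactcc
Ppp1r15a, chr7:45526269-45526518, minus strand: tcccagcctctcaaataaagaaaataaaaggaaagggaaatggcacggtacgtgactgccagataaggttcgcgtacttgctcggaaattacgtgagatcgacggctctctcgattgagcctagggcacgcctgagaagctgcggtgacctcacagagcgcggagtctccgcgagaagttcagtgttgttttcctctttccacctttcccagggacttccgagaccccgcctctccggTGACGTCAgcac
Zfp36, chr7:28379229-28379478, minus strand: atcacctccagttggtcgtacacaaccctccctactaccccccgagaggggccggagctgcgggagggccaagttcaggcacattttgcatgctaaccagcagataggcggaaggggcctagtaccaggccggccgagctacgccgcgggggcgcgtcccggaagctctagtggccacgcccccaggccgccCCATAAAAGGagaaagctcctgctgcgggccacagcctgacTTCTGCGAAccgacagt
On either strand, TGACG was present in 10 of the 18 immediate early promoters in the RefSeq table (55.6%) and in 31.7% of the 8003 promoters of tested genes. The full palindrome TGACGTCA, which also contains TGACG, was present in 3 of the 18 (16.7%) and in 3.07% of the tested genes. The CArG box was in 1 of the 18 (5.56%) and in 1.21%, TTCNNNGAA in 1 of the 18 and in 7.33%, the AP-1 motif TGANTCA in 1 of the 18 and in 5.27%, and TATAAA in 3 of the 18 (16.7%) and in 7.41%. These are matches of letters in a short window, and no binding was measured. Elements farther upstream were not searched. Of the members without overlap, Fos and Btg1 had matches, Jun had 0 to each of the 6 motifs, and Egr1 had no promoter in the RefSeq table. Of the 3 genes shown, Ppp1r15a and Zfp36 had groups that overlapped. Whether any of the motifs plays a part in the lower levels was not tested.

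Fos (chromosome 12, 85473890 to 85477273), a subunit of the transcription factor AP-1, showed the largest difference of the immediate early genes. It was at 30.2, 73.9, 68.8 and 86.7 RPKM in dKO 1 to 4 and at 0.245, 0.0256, 2.57 and 12.3 RPKM in dKO_Flt3ITD 1 to 4, while control held 62.6 to 289 RPKM. Every dKO library lay above every dKO_Flt3ITD library (log2 fold change −4.46, SE 0.68, limma adjusted p = 0.0502). Jun, its AP-1 partner, was at 13.3, 9.19, 11.6 and 9.55 RPKM in dKO and at 0.657, 0.488, 8.53 and 2.87 in dKO_Flt3ITD (log2 fold change −1.93, SE 0.63, limma adjusted p = 0.418). Egr1, a zinc finger factor induced through ERK, was at 1.29, 3.8, 8.19 and 9.67 RPKM in dKO. In dKO_Flt3ITD it was listed at 0 in libraries 2 and 3, with 0.012 and 0.443 RPKM in 1 and 4. Its log2 fold change was −2.38 (SE 0.68, limma adjusted p = 0.335), and the dKO_Flt3ITD libraries all lay under the lowest dKO value. Ppp1r15a, a phosphatase subunit of the stress response, was at 1.31, 33.8, 24.5 and 30.9 RPKM in dKO and at 0.425, 0.989, 1.13 and 4.20 in dKO_Flt3ITD. The low dKO 1 made its groups overlap, and without that library it was 1 of 2 genes called (log2 fold change −3.69, limma adjusted p = 0.0325). Zfp36, which destabilises cytokine messenger RNAs, was at 15.9, 56.3, 70.9 and 72.4 RPKM and at 6.07, 13.3, 19.6 and 33.1, so again only dKO 1 fell inside the dKO_Flt3ITD range. Dusp2 (log2 fold change −0.88), a nuclear ERK phosphatase, and Btg1 (−0.91), an antiproliferative factor, had smaller differences.

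Output genes of the ERK cascade, feedback inhibitors and other targets such as Egr1 and Ier3, had a lower sum as well. Of 10 tested, 8 had negative log2 fold changes (median −0.88), and 4 had a limma p under 0.05 downward, namely Dusp6, Egr1, Dusp5 and Ier3, beside 4.01% of all tested genes, and 0 upward. Their summed level was 102 to 184.1 RPKM in dKO and 42.88 to 89.11 in dKO_Flt3ITD, without overlap, and 154.1 to 263.7 in control. Dusp6, the cytoplasmic ERK phosphatase, was at 51.6, 21.4, 36.9 and 41.7 RPKM in dKO 1 to 4 and at 7.12, 5.26, 29.1 and 0.309 RPKM in dKO_Flt3ITD 1 to 4. The groups overlapped through dKO_Flt3ITD 3 alone (log2 fold change −2.47, SE 0.67, limma adjusted p = 0.302). Dusp5, its nuclear counterpart, was at 5.61 to 30.4 RPKM and 1.03 to 5.89 (log2 fold change −1.97, limma adjusted p = 0.399). Ier3, an ERK target that protects from cell death, was at 25.5 to 65.6 RPKM and 7.6 to 29.3 (log2 fold change −1.25, limma adjusted p = 0.498). Spry1 (log2 fold change 0.72), a Sprouty inhibitor of receptor kinases, and Spred2 (0.22) were the members with positive values. Egr1 belongs to both lists, so they are not separate results.

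**Figure D2:**
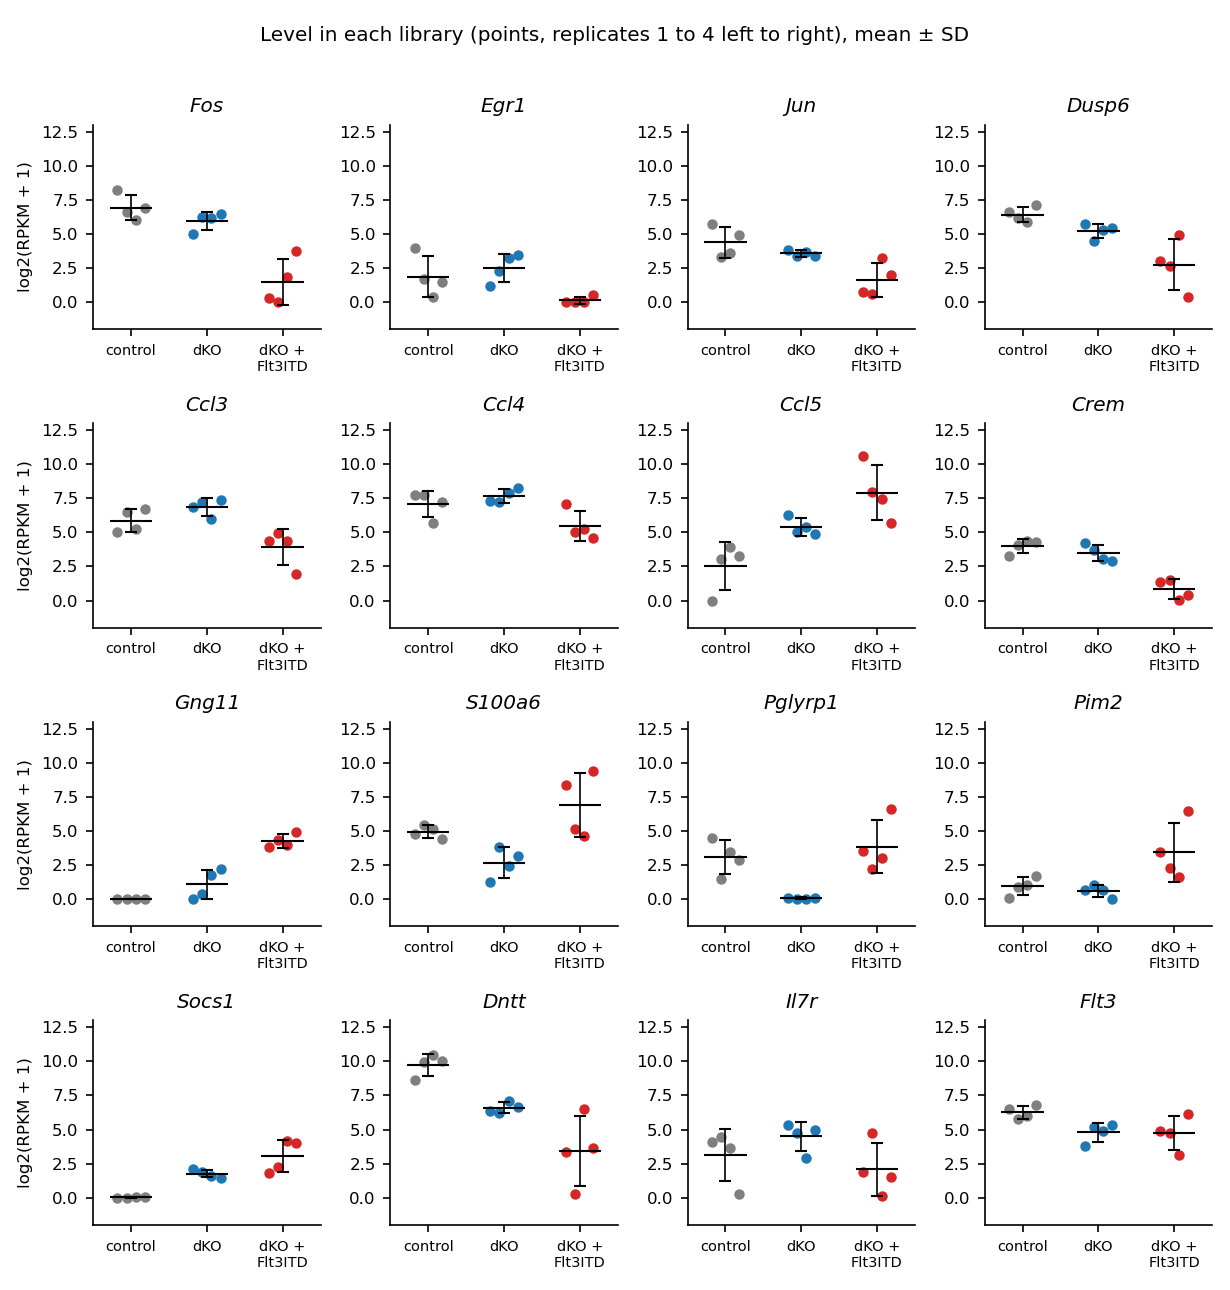
Levels of 16 genes as log2(RPKM + 1) in each of the 12 libraries, with replicates 1 to 4 from left to right in each group and the mean ± SD (n = 4). Fos, Egr1, Jun and Crem lie lower in all 4 dKO_Flt3ITD libraries than in dKO, Gng11, S100a6, Pglyrp1 and Pim2 higher, and Flt3 overlaps.

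Genes of the receptor and its signalling chain had fold changes on both sides of 0. Of 39 tested genes 23 had a positive log2 fold change and 16 a negative one (median 0.05, beside 0.0042 for all tested genes). Without dKO_Flt3ITD 1 the list's median was 0.34, and with the relation of level to GC content removed, as described below, it was 0.175. Of these 39, 1 had a limma p under 0.05, beside 7.71% of all tested genes in either direction. The ligand gene Flt3l was at 0 to 3.05 RPKM in dKO and 0 to 10.2 in dKO_Flt3ITD. The related receptor Kit was at 38.2 to 68.3 and 39.5 to 78.8 RPKM (log2 fold change −0.11, 95% interval −0.81 to 0.59). Among the adaptors that link the receptor to Ras, Grb2 was at 17.4 to 31.1 and 19.4 to 21.3 RPKM, and Gab2 had a log2 fold change of 0.82 (95% interval −0.33 to 1.98). The Ras gene Nras had a log2 fold change of −0.29, and the ERK kinase gene Mapk3 of 0.27. Map2k2, the kinase above ERK, was at 8.83, 8.58, 6.79 and 4.91 RPKM in dKO and at 16.9, 11.3, 13.6 and 15.6 in dKO_Flt3ITD. It was 1 of 2 members whose groups did not overlap, beside a percentage of 2.08 for all tested genes in that direction. The other was Akt1, the kinase of the PI3 kinase route, at 11.9 to 17.6 and 17.6 to 25.7 RPKM (log2 fold change 0.68, 95% interval −0.07 to 1.42). Its groups were barely apart, with 17.57 RPKM in dKO 3 and 17.63 in dKO_Flt3ITD 2. Both differences shrank when that relation was removed, to 0.52 for Map2k2 and 0.31 for Akt1.

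The genes of STAT5 and of its kinase did not separate the groups, with wide intervals. Stat5a had a log2 fold change of 0.14 (95% interval −0.88 to 1.17), Stat5b of 0.02 (−1.05 to 1.09) and Jak2 of 0.55 (−0.58 to 1.67). Fyn, a Src-family kinase, had the lowest fold change of the list, −0.77 (95% interval −1.94 to 0.41). Of the brakes on the receptor reported here, Cbl, which marks it for degradation, had 0.61, the phosphatase gene Ptprj 0.85, and Inpp5d 0.41 as log2 fold changes. Their 95% intervals reached past a rise of 1 log2 unit, up to 1.69, 1.97 and 1.27, so a rise of that size was neither shown nor excluded.

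STAT5 targets, the outputs by which the duplicated receptor is best known, had values on both sides of 0. Of 20 tested, 13 had a positive log2 fold change and 7 a negative one (median 0.22). A limma p under 0.05 was found for 2 upward, Pim2 and Socs1, beside 3.7% of all tested genes, and for 0 downward. Pim2 (chromosome X, 7878262 to 7883432), a survival kinase, was at 0.557, 1.09, 0.573 and 0 RPKM in dKO 1 to 4 and at 9.89, 3.81, 2.06 and 89.2 RPKM in dKO_Flt3ITD 1 to 4. All 4 dKO_Flt3ITD libraries lay above all 4 dKO libraries, with dKO_Flt3ITD 4 far above the other 3 (log2 fold change 2.87, SE 0.80, limma adjusted p = 0.333). In control Pim2 was at 0.0723 to 2.29 RPKM. Socs1, a feedback inhibitor of JAK kinases, was at 3.35, 2.70, 2.09 and 1.76 RPKM in dKO and at 2.52, 3.77, 17.2 and 14.9 in dKO_Flt3ITD, where libraries 3 and 4 were high, library 1 lay within the dKO range and library 2 just above it (log2 fold change 1.29, limma adjusted p = 0.602). Cish (log2 fold change −0.23) and Socs2 (0.45), targets that STAT5 induces strongly, had dKO_Flt3ITD libraries on both sides of the dKO range. Il2ra, the interleukin-2 receptor alpha chain, had −1.22 (95% interval −3.25 to 0.82).

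Genes of lymphoid priming, the early lymphoid programme of progenitors, had mostly negative fold changes. Of 15 tested, 14 had negative log2 fold changes (median −0.62), and 5 had a limma p under 0.05 downward, beside 4.01% of all tested genes, against 0 upward. Their summed level was 935.4 to 1240 RPKM in dKO and 428.2 to 905.9 in dKO_Flt3ITD, without overlap, and 1161 to 2664 in control. Dntt (chromosome 19, 41029275 to 41059525), the terminal transferase that adds bases at antigen receptor joints, was at 82, 75, 137 and 102 RPKM in dKO 1 to 4 and at 9.05, 0.201, 90.1 and 11.4 RPKM in dKO_Flt3ITD 1 to 4. The third dKO_Flt3ITD library lay within the dKO range and the other 3 far below it (log2 fold change −3.17, SE 0.84, limma adjusted p = 0.283), and without it Dntt was called at −4.20 with a limma adjusted p of 0.0361. Rag2, the partner of Rag1 in receptor recombination, was at 129, 61.3, 94.4 and 52.5 RPKM and at 22.4, 40.6, 48.0 and 0.0121 RPKM, without overlap. Il7r, the interleukin-7 receptor, was at 39.7, 25.4, 6.53 and 30.8 RPKM and at 2.79, 25.8, 0.0883 and 1.84 RPKM, with dKO_Flt3ITD 2 inside the dKO range. Ccr9, a thymus homing receptor, was at 0 to 6.44 RPKM in dKO and at no more than 0.0855 in dKO_Flt3ITD, with 5.72 to 11.6 in control. Cd7 had the only positive value, a log2 fold change of 2.01, and was at 65.7 RPKM in dKO_Flt3ITD 1.

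T-cell genes further along the lineage were mixed. Of 14 specification genes 8 had negative values with a median log2 fold change of −0.11. Tcf7 and Cd247 passed the filter through control alone, at no more than 0.814 and 0.676 RPKM in the 8 libraries. The signs of their fold changes therefore say little. Lck and Trat1 had a limma p under 0.05 downward, beside 4.01% of all tested genes, and Thy1 upward, beside 3.7%. Lck, the kinase of T-cell receptor signalling, was at 48.1, 44.4, 91.0 and 140 RPKM in dKO and at 42.9, 28.6, 33.5 and 6.83 in dKO_Flt3ITD, without overlap by a margin of 44.4 to 42.9 (log2 fold change −1.59, limma adjusted p = 0.418). Thy1, a surface glycoprotein of T cells, was at 2.45 to 4.53 RPKM and 4.92 to 16.4, without overlap in the other direction (log2 fold change 1.23, limma adjusted p = 0.602). Cd27, a costimulatory receptor, was at 245 to 369 RPKM and 90.4 to 290 (log2 fold change −0.82). All 7 markers of early thymic precursors had negative log2 fold changes (median −0.36). Of them 1, Il7r, had a limma p under 0.05, beside 4.01% of all tested genes downward. With the relation to GC content removed 6 of the 7 were negative and the median was −0.09. Their summed level overlapped, at 317.2 to 405.1 RPKM in dKO and 237.3 to 342.5 in dKO_Flt3ITD. In bulk libraries, fewer cells of a type and less RNA per cell cannot be told apart.

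Cell cycle genes had small and mostly negative fold changes. Of 35 tested, 29 had negative log2 fold changes (median −0.46), and 6 had a limma p under 0.05 downward, beside 4.01% of all tested genes, against 0 upward. Their summed level was 2054 to 2799 RPKM in dKO and 1417 to 1914 in dKO_Flt3ITD, without overlap, and 1895 to 2717 in control. Rrm2 and Rrm1, the subunits of ribonucleotide reductase, were at 78.1 to 257 and 63.1 to 154 RPKM in dKO and at 45.4 to 122 and 30.3 to 71.5 RPKM in dKO_Flt3ITD. Both overlapped, with log2 fold changes of −0.98 and −0.94. Ccnb1, a mitotic cyclin, was at 33.0 to 84.3 and 20.5 to 45.6 RPKM (log2 fold change −0.86), and Ccna2, the cyclin of S phase, had −1.28 (limma adjusted p = 0.602 and 0.612). Not all members were lower: Aurka, a spindle kinase, had a log2 fold change of 0.88 and E2f1, an activator of S-phase genes, 0.56.

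**Figure D3:**
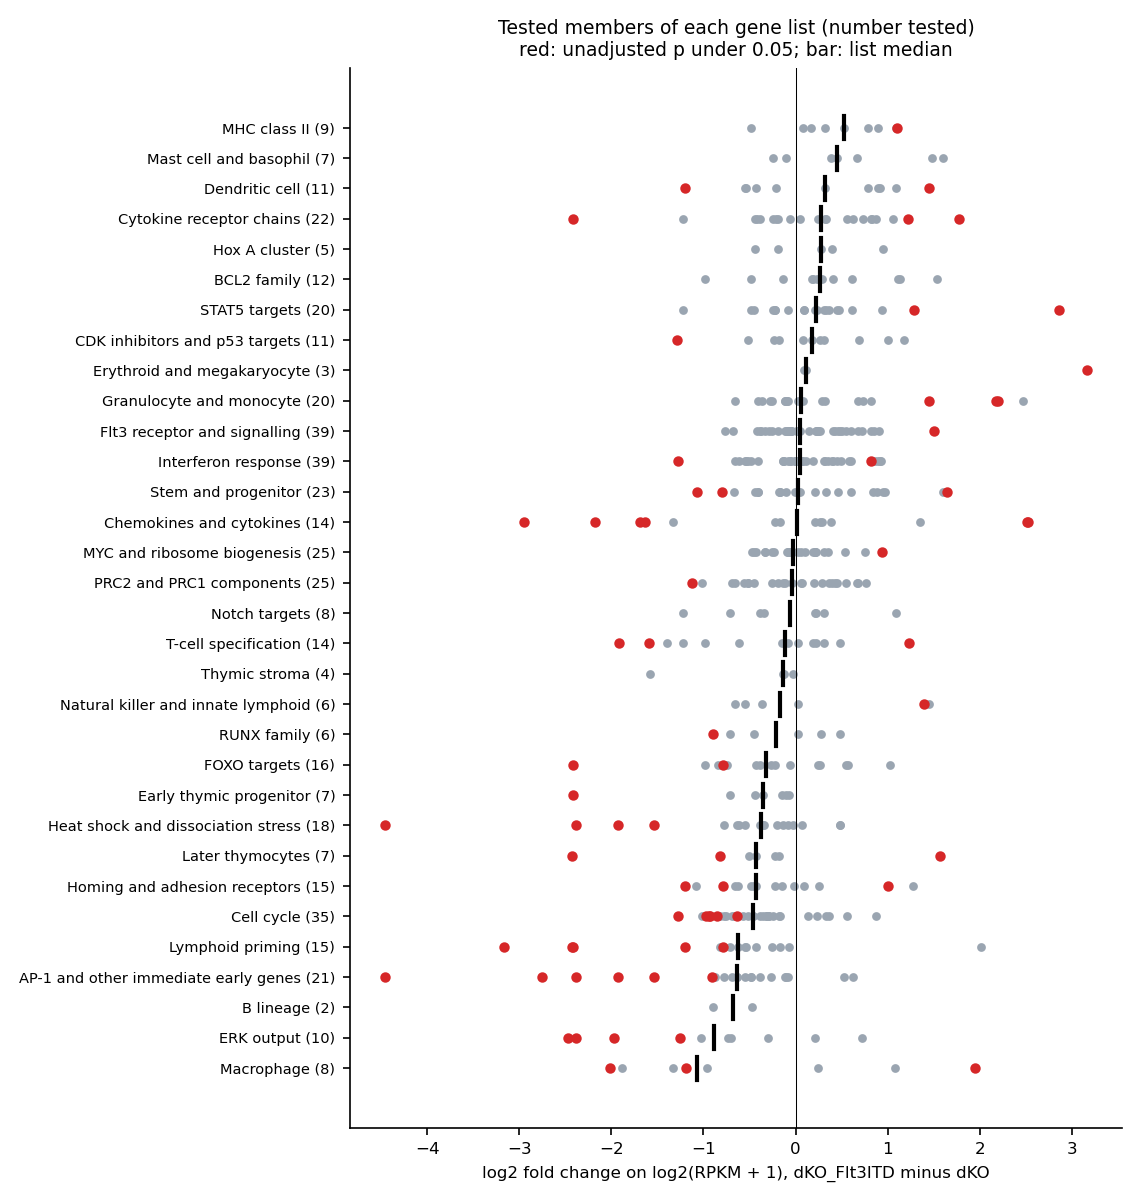
Log2 fold changes (dKO_Flt3ITD minus dKO, on log2(RPKM + 1)) of the tested members of 32 gene lists, with the number tested in brackets, red points for an unadjusted limma p under 0.05 and black bars for list medians. The medians of the macrophage, ERK output, immediate early, lymphoid priming and cell cycle lists lie between −1.07 and −0.46, and that of the Flt3 signalling list near 0.

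Chemokine and cytokine genes had fold changes in both directions. Of 14 tested, 6 chemokines and 8 other cytokines, 7 were positive and 7 negative, with 2 at a limma p under 0.05 upward, beside 3.7% of all tested genes, and 4 downward, beside 4.01%. Ccl3 (chromosome 11, 83647844 to 83649355) and its neighbour Ccl4, inflammatory chemokines, were lower in every dKO_Flt3ITD library than in any of dKO. Ccl3 was at 115, 149, 60.8 and 166 RPKM in dKO and at 19.7, 29.6, 19.3 and 2.92 in dKO_Flt3ITD (log2 fold change −2.95, SE 0.57, limma adjusted p = 0.138). Ccl4 was at 155, 152, 242 and 303 RPKM and at 135, 31.9, 37.4 and 23.2 (log2 fold change −2.18, SE 0.52, limma adjusted p = 0.261). Ccl5, a further chemokine gene of the same chromosome, had the opposite sign, at 76.8, 30.9, 41.2 and 28.6 RPKM in dKO and at 1533, 251, 170 and 50.7 in dKO_Flt3ITD (log2 fold change 2.53, SE 0.87, limma adjusted p = 0.46). Its lowest dKO_Flt3ITD value lay within the dKO range and its highest came from dKO_Flt3ITD 1. Ccl9 was at 0.179 to 3.78 RPKM and 1.48 to 68.7, highest in dKO_Flt3ITD 4 (log2 fold change 2.52). Macrophages are a known source of these chemokines, and 5 of 8 tested macrophage genes had negative values with a median of −1.07, while their summed level overlapped at 33.96 to 125.8 RPKM in dKO and 23.46 to 142.1 in dKO_Flt3ITD. Of the macrophage genes, Mrc1 was at 2.86 to 11.1 RPKM in dKO and 0.00775 to 2.89 in dKO_Flt3ITD, Emr1 at 0.0331 to 7.26 and 2.48 to 43.4, and C1qc was listed at 0 in dKO_Flt3ITD 1 and 2. In control, Ccl3 was at 32 to 102 RPKM and Ccl4 at 51.3 to 216. Mrc1 and Emr1 stayed at no more than 0.0283 and 0.0371 RPKM in control. Of the other macrophage genes, Cd163 was at 3.07 to 7.83 RPKM there and C1qb at 0.709 to 22.8. The part of macrophages in the chemokine levels was not tested.

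Genes ranked by the test, apart from those already described, had varied functions. Gng11 (chromosome 6, 4003904 to 4008445), a gamma subunit of G proteins, was at 0, 0.314, 2.46 and 3.59 RPKM in dKO 1 to 4 and at 13.5, 18.9, 14.3 and 29.6 RPKM in dKO_Flt3ITD 1 to 4, and was listed at 0 in all 4 control libraries. All 4 dKO_Flt3ITD libraries lay above the dKO range (log2 fold change 3.17, SE 0.54, limma adjusted p = 0.0664). Platelets and their precursors carry Gng11. The platelet factor gene Pf4 was listed at 0 in dKO_Flt3ITD 2 and 3 and was at 3.5 and 25.1 RPKM in dKO_Flt3ITD 1 and 4. In dKO, Pf4 was at 4.29 RPKM in library 4 and listed at 0 in libraries 1 to 3. S100a6 (chromosome 3, 90612882 to 90624181), a calcium-binding protein, was at 1.42, 13.5, 4.34 and 8.06 RPKM and at 326, 34.6, 24.0 and 678 RPKM (log2 fold change 4.21, SE 0.84, limma adjusted p = 0.16), while control held 20.5 to 43.3. Pglyrp1, an antibacterial protein of granulocytes, was at no more than 0.0879 RPKM in dKO and at 10.4, 3.55, 7.14 and 98.8 in dKO_Flt3ITD, but also at 1.84 to 21.8 in control. The level of dKO thus lay below both other groups for S100a6 and Pglyrp1. Ramp2, a partner of peptide hormone receptors, was at 0 to 0.0813 RPKM and 3.5 to 10.2. The remaining higher genes of this rank, Sap30, Prr24, Arf5, Mecr, H2afj, Mid1ip1, Ifi204 and Pgp, had log2 fold changes from 1.39 for H2afj to 2.43 for Ifi204 and Pgp, without overlap in any of them. Ifi204 belongs to a family of near-identical genes, so its reads may be split among copies.

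Lower genes of the same rank were led, after Fos, by Wfdc18 (chromosome 11, 83709015 to 83711348), a small secreted protein with a protease inhibitor fold. It was at 14.4, 8.33, 13.4 and 8.09 RPKM in the dKO libraries, and each dKO_Flt3ITD library listed it at 0 (limma adjusted p = 0.0664), with 0 to 6.85 RPKM in control. Crem, a factor that binds cyclic AMP response elements, was at 17.5, 12.3, 7.47 and 6.43 RPKM in dKO and at 1.56, 1.84, 0.00952 and 0.32 in dKO_Flt3ITD (log2 fold change −2.66, SE 0.51, limma adjusted p = 0.138). Control held 8.81 to 19.9 RPKM of Crem, a range that overlaps with dKO. Actr6, a subunit of a chromatin remodelling complex, was at 96.3, 59.1, 54.9 and 60.1 RPKM and at 27.0, 16.3, 17.1 and 10.6 (log2 fold change −1.91, SE 0.35, limma adjusted p = 0.12). P2ry13, a purine nucleotide receptor, was at 14.8 to 30.8 RPKM and 0 to 7.86. The others, Gorab, Fam64a, Trim16, Lysmd3 and Cables1, had log2 fold changes from −2.06 for Trim16 to −2.90 for Gorab, and none had groups that overlapped, which the rule for naming them required.

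Myeloid genes were uneven across the dKO_Flt3ITD libraries. Of 20 tested granulocyte and monocyte genes 11 had positive values with a median log2 fold change of 0.05. A limma p under 0.05 upward was found for 3, Ctsg, Ly6c2 and Irf8, beside 3.7% of all tested genes. The summed level was 515.2 to 914.2 RPKM in dKO and 1153, 433.5, 391.7 and 1861 in dKO_Flt3ITD 1 to 4. Libraries 1 and 4 lay above the dKO range and libraries 2 and 3 below it. Ctsg, the granule protease cathepsin G, was at 8.95 to 20.4 RPKM in dKO and at 184, 42.6, 15.3 and 218 in dKO_Flt3ITD, and Prtn3, another granule protease, at 0 to 22.2 and at 55.3, 0.332, 9.44 and 273. Elane and F13a1, which did not pass the filter, were at 105 and 52.4 RPKM in dKO_Flt3ITD 4 and at no more than 8.78 in the other 7 libraries. Irf8, a factor of monocyte and dendritic cell development, was the member without overlap, beside 2.08% of all tested genes upward. It was at 0.0190 to 1.14 RPKM in dKO and 1.48 to 6.15 in dKO_Flt3ITD. S100a6, Pglyrp1, Pim2 and Ccl9 were highest in the same library, dKO_Flt3ITD 4. In dKO_Flt3ITD 2 and 3 Elane was at 0.117 and 0.0440 RPKM, while Ctsg in dKO_Flt3ITD 2 lay above the dKO range. The part of myeloid RNA in the levels of these genes was not tested.

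MHC class II genes, which present antigen, were highest in dKO_Flt3ITD 1, except for H2-Ob. Of 9 tested MHC class II genes 8 had positive log2 fold changes with a median of 0.53. Of the 9, 1, H2-DMb1, had a limma p under 0.05 upward, beside 3.7% of all tested genes. Their summed level was 456.8 to 889.1 RPKM in dKO and 2828, 505.1, 543 and 873.7 in dKO_Flt3ITD 1 to 4. Apart from dKO_Flt3ITD 1, the libraries of that group lay within the dKO range, and without it the list's median was −0.14. Cd74, the invariant chain, was at 71.4 to 138 RPKM in dKO and at 996, 16.8, 133 and 311 in dKO_Flt3ITD. The same library was the highest for Ccl5 and Bst2 (518 RPKM). Mast cell and basophil genes had 5 of 7 positive values and a median of 0.45, and summed to 269.6 to 485.3 RPKM in dKO and 357.9 to 745.5 in dKO_Flt3ITD.

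**Figure D4:**
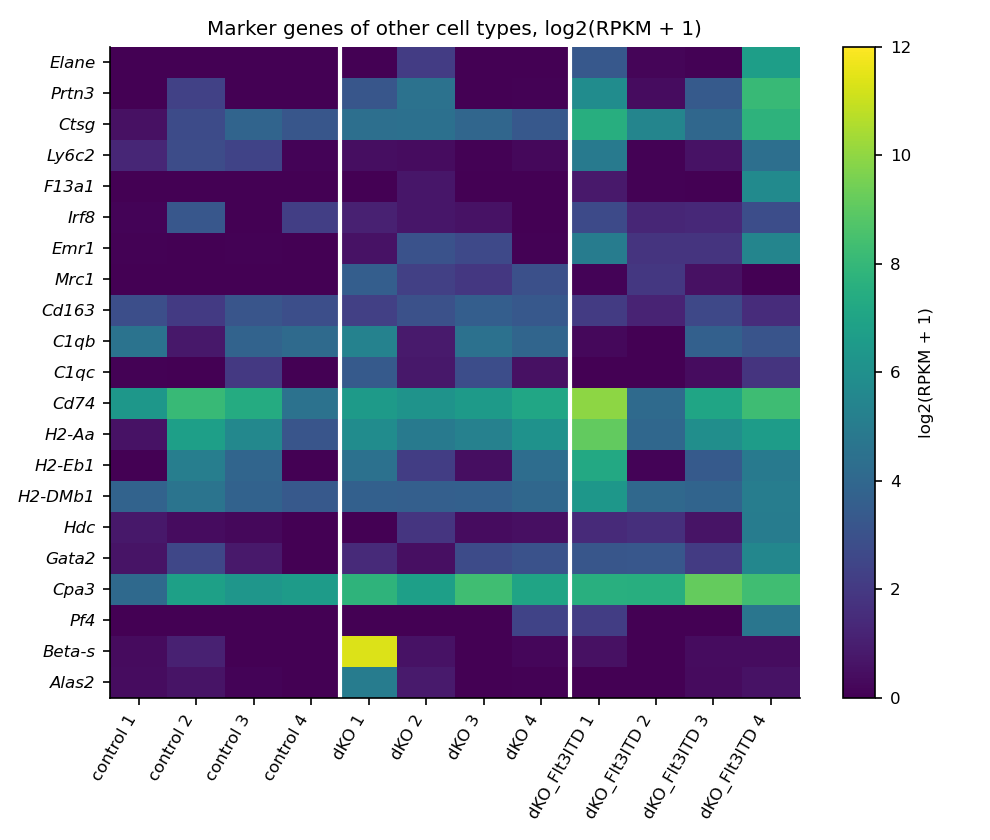
Levels of 21 marker genes of other cell types as log2(RPKM + 1), by colour, in the 12 libraries. Beta-s and Alas2 stand out in dKO 1, Elane, F13a1 and Pf4 in dKO_Flt3ITD 4, and Cd74 and H2-Aa in dKO_Flt3ITD 1.

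The other lists described here had at most 3 tested members each at a limma p under 0.05. Over all tested genes, 3.7% had such a p upward, 4.01% had it downward, and 2.2% had no overlap downward. Of the stem and progenitor genes 12 had a positive log2 fold change and 11 a negative one (median 0.03), where Hlf, a stem cell factor, had 1.64 and Bcl11a, a factor of lymphoid progenitors, −1.07. Bcl11a was at 62.7 to 95.3 RPKM in dKO and 18.7 to 58.5 in dKO_Flt3ITD, without overlap. Of 39 interferon response genes 1 had a limma p under 0.05 in each direction, Tap1 upward and Gbp2 downward. Of 25 Polycomb components 1, Rnf2, was lower at that threshold, at 39.8 to 73.5 and 15 to 32.5 RPKM, and of 6 RUNX family genes 1, the partner gene Cbfb, at 36.6 to 67.8 and 19.9 to 33.6 RPKM, both without overlap. Of 22 cytokine receptor chains, Il3ra and Il6ra had a limma p under 0.05 upward and Il7r downward. FOXO targets, which AKT is known to hold down, had 11 of 16 negative values with a median of −0.33, and 2 were below that p, Il7r among them, both of which the lymphoid list also holds. Homing and adhesion receptors had 11 of 15 negative values with a median of −0.43, and 1 was below that p upward and 2 downward. BCL2 family genes had 9 of 12 positive values (median 0.26) and 0 below that p, with Bad, a cell death promoter, at a log2 fold change of 1.11 (95% interval −0.12 to 2.35). With the relation to GC content removed 6 of the 12 were positive and the median was 0.016.

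The difference between the groups moved with the GC content of transcripts. Median GC content was 54% for the 395 genes higher at a limma p under 0.05 and 44.6% for the 429 lower, against 49.1% for all tested genes. Across 10608 genes with a value, which share the 8 libraries, Spearman's rho between log2 fold change and GC content was 0.289, and −0.117 with transcript length. The median log2 fold change went from −0.29 in the lowest to 0.33 in the highest of 10 equal classes of GC content. Within libraries, rho between level and GC content was −0.132 to −0.175 in dKO and −0.0209 to −0.106 in dKO_Flt3ITD, so the groups did not overlap in this property. With that relation removed, by a fit chosen after the data were seen, limma again called 0 genes, and 694 had an unadjusted p under 0.05, of which 556 were among the 824.

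Gene lists differed in how far their counts changed when that relation was removed. The immediate early genes had a median GC content of 55.5%, on the side where fold changes were positive. Of these 21 genes, 7 had a limma p under 0.05 downward after removal and 6 before. The part of GC content in their lower levels was not tested. Fos kept a log2 fold change of −4.51 (limma adjusted p = 0.0553) after removal. The ERK output genes had 4 before and 4 after. Lymphoid priming genes went from 5 to 3 and cell cycle genes from 6 to 2, although their medians were −0.60 and −0.51 after removal. Of all tested genes, 4.01% had such a p downward before removal and 3.33% after. Gng11 had 3.09 after removal. Rescaling every library to the same sum put the median over all tested genes at −0.09 and gave 290 higher and 553 lower genes at a limma p under 0.05, or 34.4% higher against 47.9% before. The spread within groups was similar, with a median SD on the log2 scale of 0.622 in dKO and 0.677 in dKO_Flt3ITD.

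**Figure D5:**
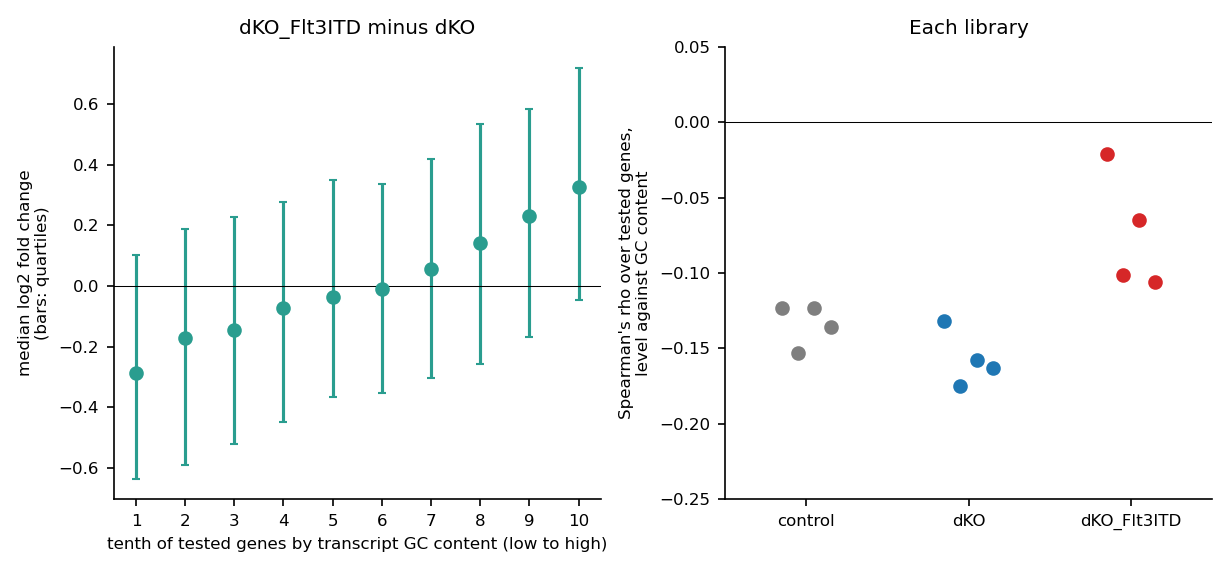
Left, median log2 fold change (dKO_Flt3ITD minus dKO, bars from the lower to the upper quartile) in 10 equal classes of the tested genes by transcript GC content, from −0.29 to 0.33. Right, Spearman's rho between level and GC content in each library, where the 4 dKO_Flt3ITD libraries lie above all 4 dKO libraries.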

How the data were processed

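Messenger RNA was measured in 12 libraries of 100 sorted cells, made with the full-length SMARTer method per the labels' protocols. HTSeq 0.5.4p5, SAMtools 0.1.19 and TopHat2 2.0.10, and the mouse build mm10, are named in the submitters' processing notes. The authors deposited 1 table of RPKM values for 13016 genes, and the total they divided by is not given in the sources used here. The sample descriptions tied each column to its sample, and the titles gave genotype and replicate number. Steps between low RPKM values gave whole reads for 100% of genes within 0.001, 13623436 to 33985972 per library. Intervals of counting alone are not given, since amplified reads are not independent molecules.

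Genes that reached 1 RPKM in 4 or more libraries were tested with limma 3.58.1 in R 4.3.3, with an intensity trend, on log2(RPKM + 1). All 12 libraries entered 1 fit with 9 residual degrees of freedom, and p-values were adjusted by Benjamini-Hochberg over 10690 genes at 0.05. Voom on the recovered reads was an alternative. Flt3, Ezh2, Runx1 and Rag1 had an exact two-sided permutation test. Of 576 symbols in 32 gene lists, 479 had a row in the table, 2 of them under an earlier name. The lists and comparisons were chosen with earlier results of these data known, and lists are described by counts and medians without a test. Named genes are those of the genotypes, the 12 higher and 12 lower with the smallest limma p among genes without overlap whose higher group averaged 5 RPKM or more, up to 4 members per list by limma p, and the Flt3 signalling list. Predicted genes were skipped, some named by the rule are not reported here, and a few others are given to complete a count. Positions and GC content came from GENCODE release M21 on GRCm38, for 99.0% of symbols, and promoters from RefSeq GRCm38.p6. The main fit did not pair libraries by replicate number. The fit was tested on simulated data. Figures were drawn with matplotlib 3.10.9, and pandas 2.3.3 and numpy 2.4.6 under Python 3.11.15 did the rest.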

Additional observations from a re-analysis of the deposited data

Results flagged for a closer look

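A library was marked where its gap to the nearest of the other 3 in its group, as a share of the group's whole range on the log2(RPKM + 1) scale, exceeded Dixon's 95% critical value for 4 samples. Of 166 groups of 4 examined 10 were marked, and chance marks about 1 in 20. Library dKO 1 was marked 4 times. It was the highest for Actr6 at 96.3 RPKM, against 54.9 to 60.1 in the other dKO libraries (gap share 0.839), and for Trim16 at 43.6 against 19.9 to 22.8 (0.831). It was the lowest for Ppp1r15a at 1.31 against 24.5 to 33.8 (0.885) and for Zfp36 at 15.9 against 56.3 to 72.4 RPKM (0.832).

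Library dKO 4 was marked 3 times. Fam64a was lowest there at 14.1 RPKM against 25.3 to 27.9 (0.851), H2-DMb1 highest at 14.9 against 11.2 to 11.7 (0.854), and Il3ra was at 2.31 RPKM there and listed at 0 in the other dKO libraries (a gap share of 1). Prr24 was highest in dKO 3, at 2.66 against 0.032 to 0.156 RPKM (0.91). In dKO_Flt3ITD, Egr1 was at 0.443 RPKM in library 4 against 0 to 0.012 in the others (0.968), and Ccr9 at 0.0855 in library 2 and listed at 0 in the others (a gap share of 1), both at levels of few reads.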

How the results depend on the processing

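The count of 0 calls was the same with pseudocounts of 0.1 and 0.5, without an intensity trend, with robust moderation, with voom, and with the GC content trend removed alone or with the length trend. It was 3 with a pseudocount of 4 (Fos, Gng11, Wfdc18), 1 with no filter on low values (C2), 1 with a filter at 5 RPKM (Fos), 2 when rescaled to the same sum (Actr6, Fos), 1 when shifted to the same median (Fos), 5 after quantile normalization (Cd53, Fos, Gng11, Rpl38, Wfdc18), 2 with array weights (Fos, Wfdc18), 1 with only the 8 libraries compared (Wfdc18) and 3 with the length trend removed (Actr6, Fos, Wfdc18). Leaving out 1 library gave 0 to 6 calls: 2 without control 1 (Fos, Wfdc18), 2 without dKO 1 (Fos, Ppp1r15a), 1 without dKO_Flt3ITD 1, 6 without dKO_Flt3ITD 3 (Dntt, Fasl, Fos, Maf, S100a4, S100a6), 1 without dKO_Flt3ITD 4 (Fos) and 0 without each other library. Without control 1, dKO 1 and dKO_Flt3ITD 1 together 1 gene was called and 1425 had no overlap. With 1 library left out that number was 457 to 909, since fewer libraries overlap less often. The sign of Runx1 turned when rescaled to the same sum (−0.089) and ran from −0.086 to 0.19 over fits without 1 library, and that of Flt3 from −0.54 to 0.47. The cause of these differences was not tested.

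The replicate number as a block gave 0 calls and 825 genes at an unadjusted p under 0.05, beside 824 without it. The deviations of dKO and dKO_Flt3ITD libraries with the same number correlated at 0.119, 0.0707, −0.0113 and 0.0525. Deviations of libraries with different numbers correlated at −0.147 to 0.0835. These values cannot show whether libraries with the same number shared a batch or litter.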
